A study of Mus musculus with 6 samples.

Results

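Genes of the integrated stress response were followed across the cell types of the liver in wild-type and SIRT7-deficient mice. The set was taken as a list of 10 genes, all of which were among the 16623 genes measured, namely the transcription factors Atf4, Atf3 and Ddit3, the targets Trib3, Chac1 and Asns, the mTORC1 inhibitors Sesn2 and Ddit4, and the stress hormones Gdf15 and Fgf21. The rule for the list used no measured value, but the genes and further lists were chosen with earlier results of these data known. Livers of 3 WT mice and 3 SIRT7 KO mice, labelled 5 to 6 months of age, were measured by 10x Genomics 3' single-cell RNA sequencing with 1 library per mouse. The SIRT7 KO animals are SIRT7-/- and, as the study describes them, develop fatty liver disease on a chow diet. Hepatocytes and nonparenchymal cells were isolated by collagenase perfusion and mixed in equal numbers, so the shares of cell types were set in part by the mixing. The study asked how endoplasmic reticulum stress and this response take part in liver damage.

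The integrated stress response is the shared pathway by which stress kinases phosphorylate the translation initiation factor eIF2α. Bulk protein synthesis then falls while the mRNA of Atf4 is translated more, and ATF4 in turn drives genes for amino acid supply and, with CHOP (the product of Ddit3), genes of feedback and cell death. Much of the control of ATF4 is at translation, which mRNA levels do not show. In the liver the response is known from fasting, protein restriction, mitochondrial disease and endoplasmic reticulum stress, and FGF21 and GDF15 are the hormones by which a stressed liver signals to other organs.

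The DNA element that ATF4 and its C/EBP partners bind holds the letters TGATGNAA, and the RefSeq promoters of the 10 genes (assembly GRCm38.p6, 250 bases before to 50 after the start site, 300 in all) were searched for it on both strands. It was found in the promoters of 5 of the 10 genes (Atf3, Chac1, Trib3, Asns and Fgf21), against 3.97% of all 32851 promoters. The list was made of ATF4 and CHOP targets and stress hormones, so the choice of genes itself favors a match to this element. The 10 genes, with 11 promoters, were counted by gene and the background by promoter. The cyclic AMP element TGACGTCA was found in 0 of the 10, against 1.79% of all promoters. The AP-1 element TGANTCA, bound by FOS and JUN proteins, was found in 1 of the 10 (Ddit3), against 7.81%. It reads the same on both strands and was counted once per site, and none of these matches overlapped another. In Fgf21 the match lay from -139 to -132 relative to the start site, in Atf3 from -110 to -103 and in Asns from -23 to -16. The 250 bases before the start site are shown for both hormones, whose values differed most between the genotypes, and for Atf3 and Asns as genes with the element. The capitals mark the matches, and the Gdf15 stretch holds none of the 3 motifs.
Fgf21 (chr7:45615491-45615740, minus strand): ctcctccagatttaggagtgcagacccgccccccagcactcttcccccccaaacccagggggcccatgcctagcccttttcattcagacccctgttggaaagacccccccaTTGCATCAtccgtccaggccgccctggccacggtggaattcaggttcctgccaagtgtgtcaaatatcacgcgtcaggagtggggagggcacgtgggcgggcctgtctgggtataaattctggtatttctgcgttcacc
Gdf15 (chr8:70632457-70632706, minus strand): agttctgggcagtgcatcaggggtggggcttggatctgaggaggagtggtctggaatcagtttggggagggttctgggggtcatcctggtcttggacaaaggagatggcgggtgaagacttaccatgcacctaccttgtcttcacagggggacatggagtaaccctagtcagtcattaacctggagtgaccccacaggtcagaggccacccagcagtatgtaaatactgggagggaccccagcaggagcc
Atf3 (chr1:191183334-191183583, minus strand): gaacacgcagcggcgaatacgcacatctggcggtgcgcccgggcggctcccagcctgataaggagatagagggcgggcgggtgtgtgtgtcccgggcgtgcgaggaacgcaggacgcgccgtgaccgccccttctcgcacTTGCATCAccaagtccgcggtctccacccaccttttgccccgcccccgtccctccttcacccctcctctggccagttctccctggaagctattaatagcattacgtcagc
Asns (chr6:7693210-7693459, minus strand): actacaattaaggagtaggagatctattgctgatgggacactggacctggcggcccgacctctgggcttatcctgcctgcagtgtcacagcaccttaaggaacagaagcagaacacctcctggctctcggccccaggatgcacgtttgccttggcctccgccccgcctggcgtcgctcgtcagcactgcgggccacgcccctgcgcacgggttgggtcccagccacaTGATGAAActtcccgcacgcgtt

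The libraries held 552 to 5609 cells and 2511947 to 11069411 UMIs (unique molecular identifiers, counted molecules) each, in 11610 cells altogether, with median depths of 1630 to 3875 UMIs per cell and 13 cell barcodes found in more than 1 library. Sirt7 (chr11:120618372-120625240, GRCm38, minus strand) averaged 0.718, 0.512 and 0.546 CP10K (counts per 10000 UMIs of a cell) over the cells of WT mice 1 to 3 and 0.09999, 0.0814 and 0.139 CP10K over those of SIRT7 KO mice 1 to 3, as the labels say. Cells were clustered, and clusters were named from marker genes with "-like" added. A pair of clusters was hepatocyte-like, 1757 hepatocyte 1-like cells led by Fabp1 and 1189 hepatocyte 2-like cells led by Gcgr and Mlxipl. All 12 hepatocyte markers were detected in both, as they were in endothelial-like cells. The names rest on the mean log2 fold of these markers over all cells outside the cluster, 1.71 and 1.31. For the other clusters and their own markers it was 2.47 to 7.64. Neither hepatocyte cluster had a hepatocyte marker among its leading genes. The nuclear transcripts Malat1, Neat1, Meg3 and Kcnq1ot1 summed to between 348 and 668 CP10K by mouse in hepatocyte 2-like cells, against 2.70 to 20.9 CP10K in hepatocyte 1-like cells. The hepatocyte 2-like cells were 320 of 800, 102 of 512 and 45 of 99 hepatocyte-like cells in WT mice and 400 of 917, 51 of 282 and 271 of 336 in SIRT7 KO mice, so values over all hepatocyte-like cells also depend on that mix.

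Genotypes were compared with the mouse as the replicate, by limma on log2 of the mean CP10K of a mouse and cell type plus 0.05, with p-values adjusted over all genes of the cell type that averaged at least 0.05 CP10K. Fold changes are SIRT7 KO over WT on that scale, where the added 0.05 pulls those of low genes toward 0. Because logs are averaged over mice, they can also differ from the ratio of the means in either direction. Sesn2 in endothelial-like cells averaged 0.141 CP10K in WT and 0.158 CP10K in SIRT7 KO mice, but its log2 fold change was -0.38 ± 0.91. Under this test 0 of the 10 genes passed an adjusted p of 0.05 in any of the 9 sets of cells compared. All hepatocyte-like cells are 1 of these sets and hold both hepatocyte clusters, so the 9 are not separate cell types. Of the 10 genes, 7 were tested over both clusters, 7 in the first, 8 in the second, and 7 each in macrophage-like and dendritic-like cells. In T-like and endothelial-like cells 4 each were tested, and in plasma B-like and B-like cells 6 each. Trib3 was tested in none. Of all tested genes 0.122% passed over both hepatocyte clusters together, 0.455% in the first alone and 0.244% in the second alone. The share was 0.201% for macrophage-like, 0.041% for dendritic-like, 0.12% for T-like, 0.282% for endothelial-like, 0.0781% for plasma B-like and 0.0215% for B-like cells. At an unadjusted p under 0.05 in limma there were 3 of the 8 tested in hepatocyte 2-like cells (Gdf15, Fgf21 and Ddit3), against 9.97% of all tested genes. Over all hepatocyte-like cells it was 2 of 7 (Gdf15 and Fgf21) against 7.4%, and in hepatocyte 1-like cells 1 of 7 (Atf3) against 10.6%. Macrophage-like cells had 1 of 7 (Atf4) against 10.6%. Dendritic-like cells had 3 of 7 (Atf3, Ddit4 and Gdf15) against 6.09%, and endothelial-like cells 1 of 4 (Ddit4) against 7.29%. With voom on summed UMIs, another test of limma, 1 of the 8 tested passed in hepatocyte 2-like cells (Fgf21), where 1.16% of all tested genes did. In each of the other sets of cells 0 passed. The voom share was 0.0406% over both hepatocyte clusters, 5.85% in the first, 0.161% for macrophage-like, 0.0308% for dendritic-like, 0.15% for T-like, 0.0282% for endothelial-like, 0.325% for plasma B-like and 0% for B-like cells.

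**Figure D1:**
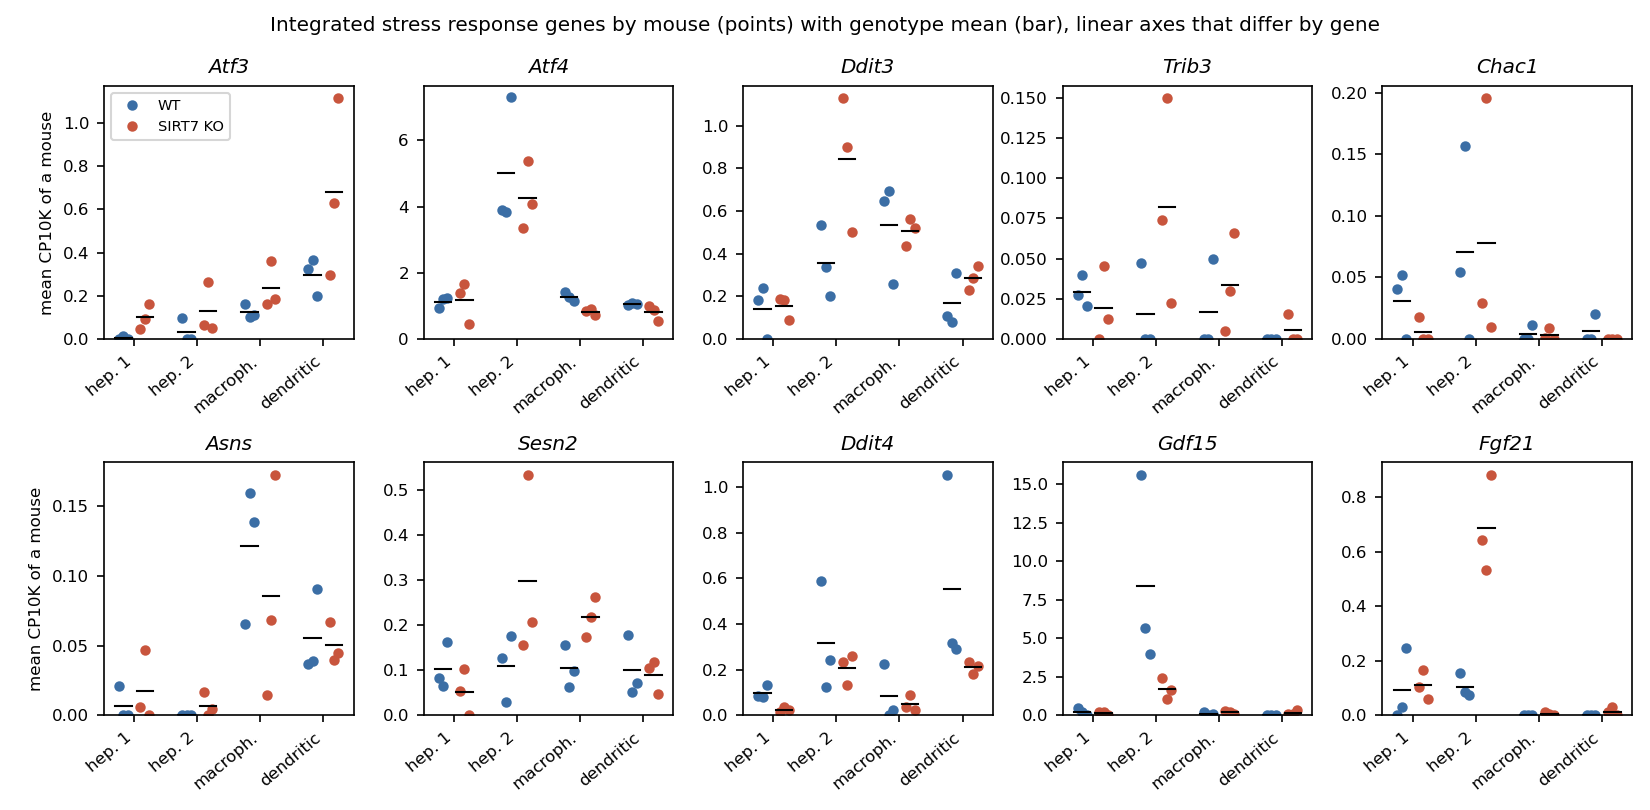
Mean level of each of the 10 genes in CP10K (vertical axis, linear, from 0, with its own range for each gene) in hepatocyte 1-like, hepatocyte 2-like, macrophage-like and dendritic-like cells. Each point is 1 mouse (blue WT, red SIRT7 KO) and each bar the mean of 3 mice. Gdf15 and Fgf21 lie apart by genotype in hepatocyte 2-like cells in opposite directions, and the points of most other genes overlap.

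Of the transcription factors, Atf4, the central regulator of the response, was the most abundant of the 10 genes by UMIs (3707 UMIs in 2715 cells). In hepatocyte 2-like cells it stood at 3.89, 3.84 and 7.30 CP10K in WT mice 1 to 3 and at 3.36, 5.38 and 4.08 CP10K in SIRT7 KO mice 1 to 3. These ranges overlapped, and the log2 fold change was -0.19 ± 0.38 (SE, adjusted p = 0.895). In hepatocyte 1-like cells it stood at 0.939, 1.19 and 1.22 CP10K in WT and 1.40, 1.67 and 0.442 CP10K in SIRT7 KO mice, again with overlap, and SIRT7 KO mouse 3 was the lowest of all 6. Macrophage-like cells (46 to 243 per WT mouse and 84 to 2648 per SIRT7 KO mouse) gave the clearest separation of Atf4, with 1.43, 1.25 and 1.14 CP10K in WT and 0.851, 0.891 and 0.723 CP10K in SIRT7 KO mice. All 3 WT mice were above all 3 SIRT7 KO mice there, with a log2 fold change of -0.60 ± 0.23 and an adjusted p of 0.359. In dendritic-like cells the values were 1.02, 1.09 and 1.06 CP10K in WT and 0.999, 0.866 and 0.546 CP10K in SIRT7 KO mice, without overlap, but SIRT7 KO mouse 1 was close to the lowest WT mouse and the adjusted p was 0.877. In macrophage-like cells 3 of the 7 tested genes of the list (Atf4, Atf3 and Sesn2) had genotypes that did not overlap, and 17.1% of all tested genes did so. In dendritic-like cells 3 of the 7 tested (Atf4, Ddit4 and Gdf15) did so, against 11% of all tested genes.

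Ddit3, which encodes CHOP, the factor that links prolonged stress to cell death, read higher in SIRT7 KO hepatocytes but did not pass the test. Its level in hepatocyte 2-like cells was 0.533, 0.338 and 0.203 CP10K in WT mice, from 46, 11 and 2 UMIs, and 1.13, 0.900 and 0.503 CP10K in SIRT7 KO mice, from 78, 8 and 69 UMIs. The first 2 SIRT7 KO mice were above all WT mice and the third was just below WT mouse 1, which gave a log2 fold change of 1.15 ± 0.48 (adjusted p = 0.422). In all hepatocyte-like cells the levels were 0.322, 0.259 and 0.0922 CP10K in WT and 0.599, 0.314 and 0.422 CP10K in SIRT7 KO mice, where SIRT7 KO mouse 2 fell just under WT mouse 1 (log2 fold change 0.92 ± 0.45, adjusted p = 0.687). Hepatocyte 1-like cells held 0.181, 0.239 and 0 CP10K in WT and 0.189, 0.184 and 0.0873 CP10K in SIRT7 KO mice, fully overlapping. In macrophage-like cells, where Ddit3 had its highest median, the WT mice spanned 0.257 to 0.694 CP10K and enclosed all 3 SIRT7 KO mice (log2 fold change 0.03 ± 0.36, adjusted p = 0.985).

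Atf3, a CREB family factor induced by ATF4 and by many other stimuli, was sparse in hepatocytes. All hepatocyte-like cells of the WT mice together held 9, 1 and 0 UMIs by mouse, and those of the SIRT7 KO mice 8, 4 and 7 UMIs. As levels these were 0.0384, 0.00942 and 0 CP10K in WT and 0.0551, 0.124 and 0.0738 CP10K in SIRT7 KO mice, so every SIRT7 KO mouse lay above every WT mouse. The log2 fold change was 1.04 ± 0.50 (limma, adjusted p = 0.684). In hepatocyte 1-like cells the SIRT7 KO mice were likewise all above the WT mice, at 0.0482, 0.0928 and 0.161 CP10K against 0, 0.0118 and 0 CP10K, from 3, 3 and 2 UMIs against 0, 1 and 0 (adjusted p = 0.454). In hepatocyte 2-like cells WT mouse 1, at 0.0961 CP10K, was above 2 of the SIRT7 KO mice, and SIRT7 KO mouse 2 reached 0.266 CP10K on a single UMI. With counts this small the fitted fold depends on the value added before the log and sets no bound.

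Macrophage-like and dendritic-like cells gave Atf3 the same order of means without passing the test. WT mice held 6, 3 and 5 Atf3 UMIs in macrophage-like and 8, 8 and 10 in dendritic-like cells. SIRT7 KO mice held 109, 87 and 14 UMIs in macrophage-like and 36, 47 and 22 in dendritic-like cells. The WT values thus rest on few UMIs here too. Macrophage-like cells held 0.161, 0.099997 and 0.111 CP10K in WT and 0.163, 0.362 and 0.185 CP10K in SIRT7 KO mice, with WT mouse 1 next to SIRT7 KO mouse 1 and a log2 fold change of 0.67 ± 0.41 (adjusted p = 0.592). Dendritic-like cells, where Atf3 had its highest median, held 0.324, 0.367 and 0.1999 CP10K in WT and 0.298, 0.628 and 1.12 CP10K in SIRT7 KO mice. There SIRT7 KO mouse 1 lay within the WT range while the other two lay above it (log2 fold change 0.94 ± 0.41, adjusted p = 0.754). In hepatocyte 1-like cells Atf3 and Ddit4 were the 2 of the 7 tested genes of the list whose genotypes did not overlap, against 16.9% of all tested genes. Over all hepatocyte-like cells Atf3 and Fgf21 were the 2 of 7, against 13%.

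**Figure D2:**
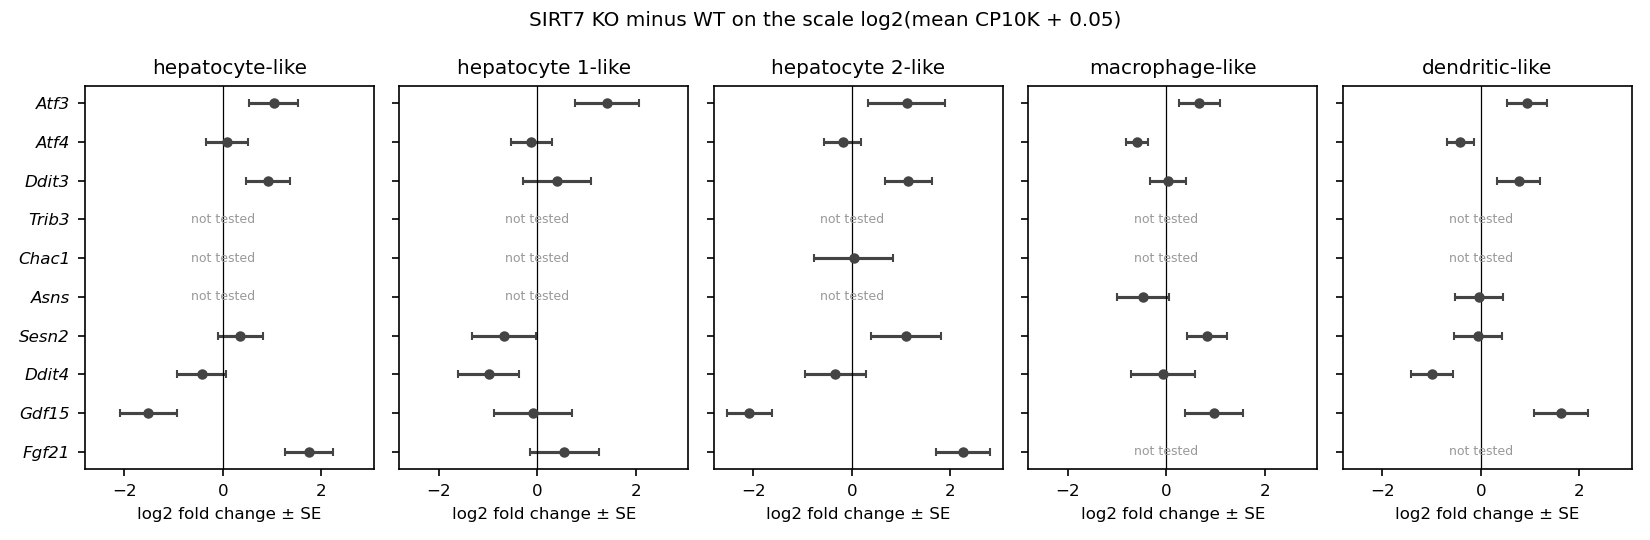
Log2 fold change of the 10 genes, SIRT7 KO minus WT, with its standard error (horizontal axis), in 5 sets of cells. A gene marked as not tested averaged under 0.05 CP10K there, and in hepatocyte 2-like cells Gdf15 at -2.08 and Fgf21 at 2.25 lie farthest from 0.

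The metabolic targets were near the limit of detection. Trib3, a pseudokinase that feeds back on ATF4 and on insulin signaling, was seen as 58 UMIs in 56 cells of the whole series. Hepatocyte-like cells of the WT mice held 7, 3 and 1 of its UMIs and those of the SIRT7 KO mice 5, 3 and 3, or 0.0352, 0.0317 and 0.0112 CP10K against 0.0322, 0.0644 and 0.0205 CP10K, and it was not tested there. Chac1, which degrades glutathione, was seen as 48 UMIs in 44 cells. In hepatocyte 2-like cells it stood at 0.0547, 0.156 and 0 CP10K in WT and 0.0292, 0.196 and 0.00995 CP10K in SIRT7 KO mice, of which the highest value rests on 1 UMI (log2 fold change 0.04 ± 0.80, adjusted p = 0.994). Asns, asparagine synthetase, the classical amino acid response gene, had 210 UMIs in 170 cells. Only 1 of these UMIs came from hepatocyte-like cells of WT mice and 4 from those of SIRT7 KO mice, and no statement on the genotype was possible there at this depth. Plasma B-like cells, which secrete antibodies, had its highest median, at 0.208 CP10K over 4 mice with a range of 0.0685 to 0.523 CP10K. Genotypes overlapped in them, with a log2 fold change of -0.29 ± 0.76 (adjusted p = 0.9496), and in macrophage-like cells Asns stood at 0.0658, 0.160 and 0.139 CP10K in WT and 0.0147, 0.0688 and 0.173 CP10K in SIRT7 KO mice.

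Sesn2 and Ddit4 both restrain mTORC1, the kinase complex that promotes growth. Sesn2, a leucine sensor, stood at 0.127, 0.0290 and 0.175 CP10K in hepatocyte 2-like cells of WT mice and 0.157, 0.535 and 0.206 CP10K in those of SIRT7 KO mice, with overlap (log2 fold change 1.10 ± 0.70, adjusted p = 0.620). Hepatocyte 1-like levels ran from 0.0832, 0.0647 and 0.163 CP10K in WT to 0.0551, 0.104 and 0 CP10K in SIRT7 KO mice, and rest on 1 to 6 UMIs a mouse apart from the 0 of SIRT7 KO mouse 3. The difference between these 2 changes, tested within mice, was 1.77 ± 0.65 on the log2 scale with an adjusted p of 0.442. In macrophage-like cells Sesn2 stood at 0.156, 0.0625 and 0.0977 CP10K in WT and 0.174, 0.219 and 0.263 CP10K in SIRT7 KO mice, so that the genotypes did not overlap, with a log2 fold change of 0.82 ± 0.41 and an adjusted p of 0.514.

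Ddit4, which is also induced by hypoxia and glucocorticoids, read lower in the hepatocytes, dendritic-like and T-like cells of SIRT7 KO mice without passing the test. In hepatocyte 1-like cells it stood at 0.0836, 0.0794 and 0.135 CP10K in WT and 0.0146, 0.0381 and 0.0224 CP10K in SIRT7 KO mice, without overlap, on 1 to 7 UMIs a mouse (log2 fold change -0.99 ± 0.62, adjusted p = 0.579). The hepatocyte 2-like values of 0.590, 0.124 and 0.241 CP10K in WT and 0.234, 0.135 and 0.260 CP10K in SIRT7 KO mice overlapped, and WT mouse 1 was far above the rest. Dendritic-like cells had 1.06, 0.316 and 0.289 CP10K in WT and 0.236, 0.181 and 0.215 CP10K in SIRT7 KO mice, again without overlap and again with WT mouse 1 the highest (log2 fold change -0.99 ± 0.42, adjusted p = 0.751). T-like cells, with the highest median of Ddit4, gave 0.341, 0.281 and 0.356 CP10K in WT and 0.256, 0.127 and 0.374 CP10K in SIRT7 KO mice (log2 fold change -0.40 ± 0.41, adjusted p = 0.876). The largest estimate was in endothelial-like cells, with means of 0.257 CP10K over 3 WT and 0 over 2 SIRT7 KO mice (log2 fold change -1.99 ± 0.97, adjusted p = 0.681). Estimates were -1.09 ± 1.69 in B-like, -0.07 ± 0.65 in macrophage-like and 0.59 ± 0.78 in plasma B-like cells.

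The stress hormones differed in opposite directions between the genotypes in hepatocyte 2-like cells, without passing the test in limma. Fgf21 (chr7:45613886-45615490, GRCm38, minus strand), a hormone of the fasting liver whose promoter above holds the ATF4 element, stood at 0.154, 0.0855 and 0.0761 CP10K in hepatocyte 2-like cells of WT mice 1 to 3 and 0.643, 0.534 and 0.883 CP10K in those of SIRT7 KO mice 1 to 3. Every SIRT7 KO mouse was above every WT mouse, and the means were 0.105 ± 0.0427 and 0.687 ± 0.179 CP10K (SD, n = 3 each). Behind these lay 12, 3 and 1 UMIs in 11, 3 and 1 WT cells and 46, 3 and 121 UMIs in 37, 3 and 47 SIRT7 KO cells, the most in 1 cell being 20 UMIs in SIRT7 KO mouse 3. The log2 fold change was 2.25 ± 0.55, or 4.77-fold higher on the fitted scale, with an adjusted p of 0.0890 in limma, above the threshold. With voom on summed UMIs the adjusted p was 0.0103, at a log2 fold change of 2.53. That was the 1 of 18 alternatives under which Fgf21 passed, and over all of them the adjusted p ran up to 0.379, for the mean of the deposited log values at a log2 fold change of 0.22.

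Over all hepatocyte-like cells Fgf21 was 0.0617, 0.0418 and 0.169 CP10K in WT and 0.340, 0.234 and 0.724 CP10K in SIRT7 KO mice, without overlap (log2 fold change 1.75 ± 0.49, adjusted p = 0.340). WT mouse 3, whose value rests on 2 UMIs in 99 cells, was the closest to the SIRT7 KO mice. Hepatocyte 1-like cells held 0 to 6 Fgf21 UMIs a mouse, and their levels of 0, 0.0309 and 0.246 CP10K in WT and 0.106, 0.167 and 0.0600 CP10K in SIRT7 KO mice overlapped. Fgf21 was close to a hepatocyte transcript in these libraries. Macrophage-like, dendritic-like and T-like cells had 6, 4 and 9 UMIs, and plasma B-like cells had 1, in WT mouse 1, which had 12 such cells and was left out of the comparison. Endothelial-like and B-like cells had 0.

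Gdf15 (chr8:70629393-70632456, GRCm38, minus strand), a hormone that reduces appetite, was 15.6, 5.66 and 3.98 CP10K in hepatocyte 2-like cells of WT mice and 2.44, 1.09 and 1.64 CP10K in those of SIRT7 KO mice. All 3 WT mice were above all 3 SIRT7 KO mice, with WT mouse 1 far above the other WT mice, and the means were 8.42 ± 6.30 and 1.72 ± 0.681 CP10K (SD, n = 3 each). The transcript was not confined to rare cells in WT mice, in which 226 of 320, 62 of 102 and 13 of 45 cells had a UMI, against 89 of 400, 6 of 51 and 91 of 271 in SIRT7 KO mice. The log2 fold change was -2.08 ± 0.46, or 4.22-fold lower in SIRT7 KO mice on the fitted scale. Its p was 1.85e-04 in limma before adjustment and 0.0528 after it, just above the threshold, and voom on summed UMIs gave an adjusted p of 0.187. Over the alternatives tried the adjusted p ran from 0.000181 to 0.461. Gdf15 and Fgf21 were the 2 of the 8 tested genes of the list whose genotypes did not overlap in hepatocyte 2-like cells, against 16.6% of all tested genes.

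The call on Gdf15 turned on single mice. Without SIRT7 KO mouse 1 or mouse 3 the adjusted p was 0.000295 or 0.000181, at log2 fold changes of -2.36 and -2.08, and without WT mouse 1 or SIRT7 KO mouse 2 it was 0.215 or 0.316, at -1.51 and -1.80. In hepatocyte 1-like cells Gdf15 stood at 0.492, 0.196 and 0 CP10K in WT and 0.195, 0.213 and 0.0355 CP10K in SIRT7 KO mice, which overlapped. The difference between the changes in the 2 clusters was -1.99 ± 0.72 on the log2 scale (adjusted p = 0.442), where 0% of all tested genes passed. Gdf15 was itself 1 of the 1000 genes used for clustering, and with it and the other stress genes left out of the clustering the log2 fold change there was -2.04 (adjusted p = 0.0593).

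In macrophage-like and dendritic-like cells the estimates for Gdf15 were above 0 and did not pass the test. Macrophage-like cells held 0.198, 0 and 0.104 CP10K in WT and 0.274, 0.238 and 0.102 CP10K in SIRT7 KO mice, which overlapped (log2 fold change 0.96 ± 0.59, adjusted p = 0.589). In dendritic-like cells the WT mice held 1, 0 and 0 UMIs and the SIRT7 KO mice 6, 8 and 5, or 0.0434, 0 and 0 against 0.0664, 0.109 and 0.321 CP10K, without overlap (log2 fold change 1.63 ± 0.54, adjusted p = 0.558). Set against hepatocyte-like cells within mice, the change in hepatocyte-like minus that in macrophage-like cells was -2.47 ± 0.71 for Gdf15 (adjusted p = 0.409) and 1.61 ± 0.63 for Fgf21 (adjusted p = 0.531), and 0.00953% of all tested genes passed.

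**Figure D3:**
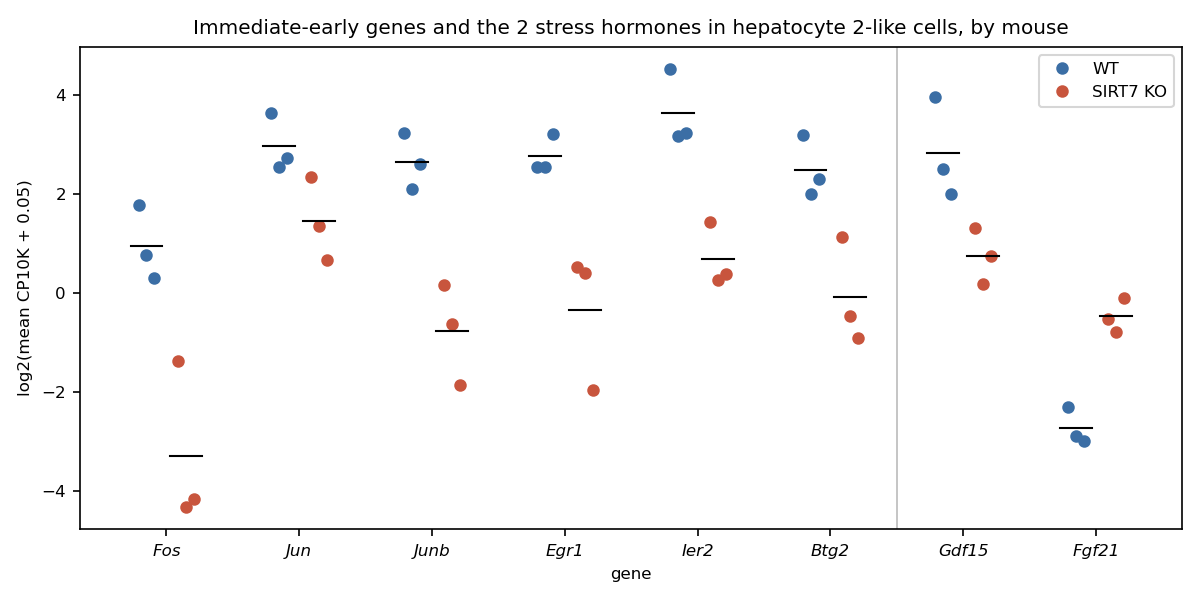
Level of 6 immediate-early genes and of both stress hormones in hepatocyte 2-like cells, as log2 of the mean CP10K plus 0.05 (vertical axis). Each point is 1 mouse (blue WT, red SIRT7 KO) and each bar a mean of 3 mice. These 6 immediate-early genes and Gdf15 are higher in all WT mice and Fgf21 in all SIRT7 KO mice. Of the 6, Junb, Ier2 and Btg2 were chosen after their values were seen. Of the 15 genes of the list tested there, 12 estimates were below 0 and 3 above.

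Immediate-early genes, which respond within minutes to tissue handling as well as to stress and include the AP-1 factors Fos and Jun, were taken as a second list. In hepatocyte 2-like cells 15 of the 20 genes on this list were tested, of which 5 fell in SIRT7 KO mice and 0 rose (12 estimates below 0 and 3 above), the 5 being Fos, Egr1, Junb, Ier2 and Btg2, of which the last 3 (log2 fold changes -3.42 ± 0.46, -2.95 ± 0.42 and -2.57 ± 0.48) were named after their values were seen. Fos stood at 3.41, 1.65 and 1.18 CP10K in WT and 0.336, 0 and 0.00626 CP10K in SIRT7 KO mice (log2 fold change -4.23 ± 0.70, adjusted p = 0.0215). Egr1 stood at 5.80, 5.77 and 9.18 CP10K in WT and 1.40, 1.27 and 0.208 CP10K in SIRT7 KO mice (log2 fold change -3.11 ± 0.57, adjusted p = 0.0406). These calls depended on the processing and on single mice. Of 18 alternatives Egr1 passed in 8, Fos and Btg2 in 11 each, Junb in 16 and Ier2 in 17, all with changes below 0. Without WT mouse 1, WT mouse 3 or SIRT7 KO mouse 2 the adjusted p was 0.214, 0.235 or 0.0646 for Egr1, 0.0721, 0.102 or 0.195 for Fos and 0.119, 0.167 or 0.177 for Btg2, without WT mouse 2 it was 0.0517 for Egr1, and without WT mouse 3 it was 0.0665 for Junb. With voom it was 0.0829 for Egr1, 0.103 for Fos and 0.0586 for Btg2, and without trend and robust moderation none of the 5 passed (0.198 to 0.380). For Jun, at 12.4, 5.84 and 6.56 against 5.05, 2.52 and 1.54 CP10K, the genotypes did not overlap but the adjusted p was 0.170. Myc did not pass, at 0.124, 0.302 and 0.336 against 0.101, 0.201 and 0.289 CP10K (log2 fold change -0.29 ± 0.63, adjusted p = 0.900).

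The whole list of 20 summed to 87.0, 47.7 and 59.5 CP10K in hepatocyte 2-like cells of WT mice and 25.8, 15.6 and 13.3 CP10K in those of SIRT7 KO mice. WT mouse 1 was the highest of all 6 mice in this sum, as it was in Gdf15. In hepatocyte 1-like cells the sums were 5.58 to 7.67 CP10K in WT and 5.96 to 7.43 CP10K in SIRT7 KO mice, and in macrophage-like cells 42.6, 38.7 and 38.7 CP10K in WT and 29.9, 27.9 and 18.7 CP10K in SIRT7 KO mice. Nuclear transcripts in hepatocyte 2-like cells overlapped between the genotypes (348 to 448 CP10K in WT and 416 to 668 CP10K in SIRT7 KO mice), while the 12 hepatocyte markers summed to 306 to 622 CP10K and 154 to 346 CP10K. Median depths of these cells were 2412, 2778.5 and 1392 UMIs in WT and 1355, 945 and 3823 UMIs in SIRT7 KO mice. The part of the immediate-early genes, depth, hepatocyte markers and nuclear RNA in the differences of Gdf15 and Fgf21 was not tested.

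Few genes of the wider response passed the test. Of 76 other genes of the response in 6 lists (control of eIF2, partner transcription factors, amino acid synthesis, aminoacyl-tRNA synthetases, amino acid transporters and other ATF4 or CHOP targets), 1 fell in endothelial-like cells and 0 passed in the other 8 sets of cells compared. By limma before adjustment 3 of 60 tested had a p under 0.05 over both hepatocyte clusters, against 7.4% of all genes. In the first cluster it was 8 of 57, against 10.6% of all genes, and in the second 9 of 59, against 9.97%. With voom 4 of 57 tested passed in the first, against 5.85% of all genes, and 1 of 59 in the second, against 1.16%. Their median log2 fold change was 0.14 in all hepatocyte-like cells, where that of all genes was 0.16, and 0.21 in hepatocyte 2-like cells, where that of all genes was 0.18. For the 10 genes themselves the medians were 0.36 over the 7 tested and 0.57 over the 8 tested.

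By list, in all hepatocyte-like cells, the 14 genes that control eIF2 had a median log2 fold change of 0.27, and none of them reached the 0.5 CP10K set for naming. Of the partner and downstream regulators, Nfe2l2, the antioxidant factor NRF2, had the highest change at 0.839, 0.683 and 0.872 CP10K in WT and 1.42, 1.41 and 3.53 CP10K in SIRT7 KO mice, without overlap (log2 fold change 1.23 ± 0.42, adjusted p = 0.553). Cebpb, which pairs with ATF4, had the lowest at -0.02 ± 0.48. The 18 aminoacyl-tRNA synthetases, which charge tRNAs and are classical ATF4 targets, had a median of 0.14 and ranged among the named ones from 0.38 ± 0.37 for Sars to -0.25 ± 0.35 for Aars. Of the transporters Slc38a2, which imports neutral amino acids, was the sole one at that level, at -0.89 ± 0.57. Among other targets the autophagy receptor Sqstm1 had the highest change, 0.76 ± 0.40, and Herpud1, of endoplasmic reticulum-associated degradation, the lowest, -0.69 ± 0.52. In amino acid synthesis the changes ran from 0.41 ± 0.38 for the transaminase Gpt2 to -1.14 ± 0.46 for Cth, and none of those named here passed the test. In hepatocyte 2-like cells alone the 18 synthetases had a median of 0.54, where that of all genes was 0.18, with 13 estimates above 0 and 5 below. Before adjustment 4 of them had a p under 0.05 in limma, against 9.97% of all genes, and 0 passed after it. Their median in hepatocyte 1-like cells was -0.18. All 3 transporters tested in hepatocyte 1-like cells had estimates below 0 (median -1.43), where the median of all genes was -0.08, and 0 passed.

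Cth, the transsulfuration enzyme that makes cysteine, was the 1 gene of these lists past the threshold, in endothelial-like cells. It stood there at 4.84, 3.87 and 2.68 CP10K in WT mice and 1.36 and 0.619 CP10K in SIRT7 KO mice 1 and 2, the third having too few cells, with a log2 fold change of -1.95 ± 0.36 (adjusted p = 0.00264). With voom the adjusted p was 0.357, without trend and robust moderation 0.678, and without WT mouse 1 or SIRT7 KO mouse 2 it was 0.0997 or 0.151. The same order was seen in hepatocyte-like cells, at 15.4, 7.52 and 8.30 CP10K in WT and 4.40, 6.27 and 3.20 CP10K in SIRT7 KO mice, where the level was higher. Macrophage-like cells held 4.07, 2.93 and 1.45 CP10K in WT and 0.762, 0.191 and 0.256 CP10K in SIRT7 KO mice. T-like cells held 4.69, 2.21 and 2.77 against 1.67, 0.478 and 1.07 CP10K, and dendritic-like cells 3.81, 1.18 and 1.43 against 0.968, 0.138 and 0.269 CP10K. Cth did not pass the test in these other types. The 12 hepatocyte markers, RNA foreign to endothelial cells, summed in endothelial-like cells to 201, 176 and 110.3 CP10K in WT and 142 and 31.3 CP10K in SIRT7 KO mice, with 0 of the 12 absent. The part of that RNA in the Cth result was not tested.

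Levels across cell types are given as the median over mice with at least 20 cells of the type and as a description, because the clusters were formed from the same cells. The 9 types ordered here leave out the combined hepatocyte-like set and include S100a8/S100a9 cells. Of 80 pairs of neighbours in the order of these 9 types, for 10 genes, 78 overlapped in their ranges over mice. Atf4 had the first exception, with 3.98 CP10K in hepatocyte 2-like cells (3.36 to 7.30 CP10K) above B-like cells at 1.597 CP10K (0.920 to 2.25 CP10K), and from there down to 0.736 CP10K in S100a8/S100a9 cells every neighbour overlapped. Gdf15 had the other, with 3.21 CP10K in hepatocyte 2-like cells (1.09 to 15.6 CP10K) above hepatocyte 1-like cells at 0.196 CP10K (0 to 0.492 CP10K) and macrophage-like cells at 0.151 CP10K. T-like cells had 0.0303 CP10K of Gdf15 at a median depth of 1530 UMIs per cell, against 2244 UMIs in hepatocyte 2-like cells. Free RNA in droplets can give UMIs in cells that do not express a gene, and its part in these levels was not tested.

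The other genes formed flatter orders. Ddit3 ran from 0.542 CP10K in macrophage-like and 0.518 CP10K in hepatocyte 2-like cells to 0.182 CP10K in hepatocyte 1-like cells. Atf3 was highest in dendritic-like cells at 0.346 CP10K, then macrophage-like cells at 0.162 CP10K, and it was at most 0.0585 CP10K in every other type. Ddit4 was highest in T-like, dendritic-like and hepatocyte 2-like cells, at 0.311, 0.263 and 0.237 CP10K. Sesn2 (0.394 CP10K) and Chac1 (0.332 CP10K) had their highest medians in S100a8/S100a9 cells over 3 mice, but on 9 and 3 UMIs. Trib3 did not exceed 0.0381 CP10K in any type. Fgf21 stood at 0.344 CP10K in hepatocyte 2-like and 0.0829 CP10K in hepatocyte 1-like cells and had a median of 0 in each of the other types.

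**Figure D4:**
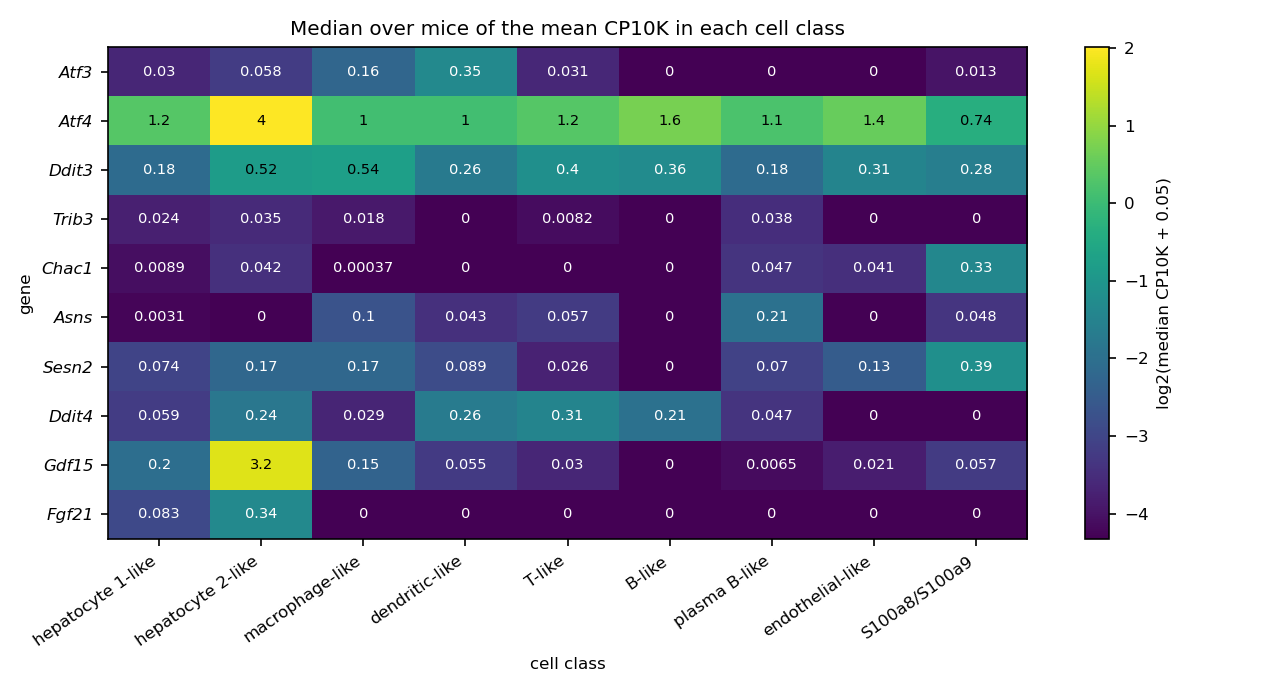
Median over mice of the mean CP10K of each gene (rows) in each of 9 cell types (columns). The printed number is the median in CP10K and the color its log2 after adding 0.05. The brightest fields are Atf4 (3.98 CP10K) and Gdf15 (3.21 CP10K) in hepatocyte 2-like cells.

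The genes most like 4 of these in level over the 46 pairs of a mouse and a cell type, among 3361 genes averaging at least 0.5 CP10K, were found by Spearman's rho, as a description with no test, since pairs share mice and cell types. For Atf4 they were Mindy1 (rho 0.77), Zfp36l1 (0.77) and Mlxipl (0.73), the last a leading gene of the hepatocyte 2-like cluster. For Atf3 they were Lrrc25 (0.70), Pgd (0.68) and Skap2 (0.67). Ddit3 was most like Dennd1b (0.66), Nrip1 (0.65) and Ppp1r10 (0.64), and Ddit4 most like Senp6 (0.59), B4galnt1 (0.59) and Rbm39 (0.55).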

How the data were processed

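Livers of 6 mice were measured by 10x Genomics 3' single-cell RNA sequencing. Per the submitters' processing notes, reads were processed with Cell Ranger 6.0.0 on build mm10. As deposited by the authors, values are the natural log of counts per 10000 UMIs plus 1, after filters on genes and mitochondrial share. UMIs were worked back from the values, and each of the 12961041 nonzero values came within 0.02 of an integer. Depth limits every value that rests on a few UMIs.

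The table names no cell types. Cells were clustered with scanpy 1.11.5 and leidenalg 0.10.2 (1000 variable genes, 50 components, 3 neighbors from each mouse, resolution 0.35), and classes were named from marker lists. Scrublet marked 0.396% of the cells, too few for it to have worked, so doublets were kept. Comparison needed 2 mice of each genotype with 20 cells: plasma B-like and B-like cells with 2 against 2 mice, endothelial-like cells with 3 WT and 2 SIRT7 KO mice, the rest with 3 against 3. limma 3.58.1 (R 4.3.3) was fitted with trend and robust moderation, with two-sided p-values adjusted by Benjamini-Hochberg across the genes tested in a class. A run on simulated counts gave all genes of a class 1 dispersion. It does not show that the calls hold in these data. The labels give 1 library per mouse, and nothing more on litter or day. Named were all 10 genes, Sirt7, list genes past the threshold or at the extremes of a list in hepatocyte-like cells at 0.5 CP10K or more, Fos, Jun, Egr1 and Myc, and the most alike genes. The genes and lists were chosen with earlier results of these data known. Promoters are from RefSeq (GRCm38.p6, 10 of 10 genes matched) and gene positions from GENCODE vM21.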

Additional observations from a re-analysis of the deposited data

How the results depend on the processing

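Of 842 values of the 51 log2 fold changes of the 10 genes under the alternatives, 790 kept their direction and their side of the threshold, 6 passed it and 46 turned sign. Counts of 0 of the 10 genes became 1 in hepatocyte 2-like cells with a pseudocount of 0.5 (Gdf15), with voom (Fgf21), with the replicate block (Gdf15), without the 5% of cells with the most UMIs (Gdf15, an alternative chosen after seeing the data), and in leaving out single mice (0 to 1). Of the list genes, counts became 4 in hepatocyte 1-like, 1 in hepatocyte 2-like and 0 in endothelial-like cells with voom, 3 in macrophage-like and 1 in dendritic-like cells with the replicate block, 0 in endothelial-like cells without moderation by trend, 1 in T-like cells and 1 in plasma B-like cells from the mean of the log values, 1 in plasma B-like cells under no filter and 1 in macrophage-like cells without the 5% of cells. Leaving out 1 mouse each gave 0 to 1 list genes in hepatocyte 2-like, macrophage-like, dendritic-like and T-like cells, 0 to 3 in endothelial-like and 0 to 3 in plasma B-like cells. The cause of these changes was not tested. Among these alternatives the share of all genes called is given above for voom alone. Counts under the others stand without a background and are not a result about these genes. The fit with equal weight for both hepatocyte clusters, and that without the 50 most abundant genes, also chosen after seeing the data, called 0 of the 10 genes.

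Signs turned as follows, the largest reported changes among them being those of Atf3 in hepatocyte 2-like cells (1.11) and the cluster difference of Ddit4 (0.65). With voom these were Atf4 (-0.19) in hepatocyte-like cells, Atf4 (0.11) and Ddit3 (-0.0943) in hepatocyte 1-like, Atf3 (-0.20) and Chac1 (-1.32) in hepatocyte 2-like, Ddit4 (0.45) in macrophage-like and Sesn2 (0.61) in dendritic-like cells. With the mean of the log values they were Atf4 (0.0076) in hepatocyte 1-like, Chac1 (-0.011) in hepatocyte 2-like and Ddit4 (0.0058) in macrophage-like cells, and the cluster difference of Ddit4 (-0.035) and the difference from macrophage-like cells of Atf3 (-0.033). A pseudocount of 0.01 turned Gdf15 in hepatocyte 1-like (0.33) and Ddit4 in macrophage-like cells (0.31), and one of 0.5 turned Ddit3 in macrophage-like cells (-0.00914) and the difference of Atf3 (-0.052). Equal weight of the clusters turned Atf4 in hepatocyte-like cells (-0.15), clustering without stress genes Ddit3 in hepatocyte 1-like (-0.0749), Scrublet Chac1 in hepatocyte 2-like (-0.0073), and leaving out the 5% of cells Ddit3 in hepatocyte 1-like (-0.039) and Asns in dendritic-like cells (0.033). Leaving out 1 mouse spanned -0.15 to 0.44 for Atf4 in hepatocyte-like cells, -0.46 to 0.44 for Atf4, -0.39 to 0.88 for Ddit3 and -1.05 to 0.67 for Gdf15 in hepatocyte 1-like, -0.36 to 0.12 for Atf4, -0.57 to 0.54 for Chac1 and -0.77 to 0.17 for Ddit4 in hepatocyte 2-like, -0.38 to 0.26 for Ddit3 and -0.58 to 0.12 for Ddit4 in macrophage-like, and -0.16 to 0.037 for Asns and -0.29 to 0.29 for Sesn2 in dendritic-like cells. For the cluster differences it spanned -0.67 to 0.27 for Atf3 and -0.61 to 0.31 for Atf4, and for Ddit4 minus its macrophage-like change -0.89 to 0.24.

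Mice with the same number were not paired by the labels, and their deviations correlated between -0.14 and 0.14, with at most 3 of 6 mice correlating best with their own number. The replicate block left Gdf15 at -2.08 in hepatocyte 2-like cells (limma, adjusted p = 0.00471) and Fgf21 at 2.25 (adjusted p = 0.0784). Voom has no fit for the differences within mice and was not run there.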
